A study of Mus musculus with 8 samples.

Results

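The heat shock chaperones described here are 10 genes, chosen by name: Hspa1a, Hspa1b and Hspa8 of the Hsp70 family, Hsp90aa1 and Hsp90ab1 of the Hsp90 family, their helpers Hsph1 and Dnajb1, the small heat shock protein Hspb1, and the chaperonin genes Hspd1 and Hspe1. By RefSeq accession, 9 of the 10 had a probe on the array, with 14 probes in all. Hspa1b had none and was not measured. All 9 passed the filter on low signal and were among the 26460 genes and transcripts tested. Hspd1 and Hspe1 encode the mitochondrial chaperonin Hsp60 and its lid Hsp10, so the name cytosolic holds for the other genes only.

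RNA came from mouse 3T3-L1 cells, a preadipocyte line that becomes fat cells after a hormone mix. The sh8 cells were 3T3-L1 stably transfected with shRNA-8 against the long noncoding RNA slincRAD, and the WT cells were unmodified 3T3-L1. Each line was sampled on days -2, 0, +2 and +4, where day 0 is confluence, and induction after it used 0.5 mM isobutylmethylxanthine, 1 µM dexamethasone and 167 nM insulin. There were 8 Agilent 1-colour arrays, 1 per line and day. No line with a control hairpin was among the samples, the labels do not say whether sh8 is 1 clone, and slincRAD itself was not analysed here, so a difference between the lines cannot be told apart from other effects of carrying a hairpin. The labels do not say that arrays came from separate cultures, so p-values measure the spread between these arrays, which may be technical.

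Chaperones bind unfolded proteins. Hsp70 proteins bind and release short exposed stretches in a cycle driven by ATP, J proteins such as Dnajb1 deliver clients and start that cycle, and Hsph1 (Hsp110) helps by releasing ADP from Hsp70. Hsp90 holds signalling proteins, including steroid receptors, in a form that can be activated. Small heat shock proteins hold unfolded clients without ATP. Hspa8, Hsp90ab1, Hspd1 and Hspe1 are made constantly in most cells. That does not exclude control by the heat shock factor HSF1, which binds repeated GAA units that alternate in direction. Its classic targets include Hspa1a, Hspa1b, Hsp90aa1, Hsph1, Dnajb1 and Hspb1.

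RefSeq promoter windows (GRCm38.p6, 250 bases before to 50 after the start site) matched 7 of the 10 genes, in 10 windows. They are shown because the genes are known as heat shock targets and because Hspd1 and Hspe1 share one. Each sequence is 5′ to 3′ on the gene's own strand, with the GAA or TTC units of 1 element in capitals. The Hspe1 stretch (chr1:55088038-55088097, plus strand) and the Hspd1 stretch (the same coordinates, minus strand) are the same bases read from opposite strands, and their capitals mark an 18-base run of 4 units.

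Hspe1: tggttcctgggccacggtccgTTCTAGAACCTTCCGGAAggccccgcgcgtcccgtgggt
Hspd1: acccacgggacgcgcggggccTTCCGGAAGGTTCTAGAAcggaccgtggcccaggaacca

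The run begins at -89 from the Hspe1 start site and at -144 from one Hspd1 start site. The window of a second Hspd1 start site (chr1:55088194-55088493, minus strand) holds no such match. The Hspe1 window and the first Hspd1 window share 285 bases. The Hsph1 stretch (chr5:149636266-149636324, minus strand) holds a 13-base run of 3 units. It begins at +16 or +37, depending on which of the gene's start sites is used.

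Hsph1: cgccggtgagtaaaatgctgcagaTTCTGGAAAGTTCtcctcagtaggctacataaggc

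The Hspa1a stretch (chr17:34972227-34972286, minus strand) and the Hspb1 stretch (chr5:135887776-135887835, plus strand) each hold an 8-base inverted pair in capitals.

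Hspa1a: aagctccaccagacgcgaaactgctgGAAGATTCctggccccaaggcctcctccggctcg
Hspb1: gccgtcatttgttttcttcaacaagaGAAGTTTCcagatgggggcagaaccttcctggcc

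The printed Hspb1 stretch holds a second pair, at -97, left in lower case. The Hspa1b window is identical to that of Hspa1a at 296 of 300 bases, and whether the Hspa1a probe also binds Hspa1b RNA was not tested. The search used GAANNTTCNNGAA or TTCNNGAANNTTC for 3 units and GAANNTTC or TTCNNGAA for an inverted pair, on both strands, and every 3-unit match contains inverted pairs. Windows with 3 units belonged to 3 of the 7 genes (Hsph1, Hspd1, Hspe1), and 0.603% of the 32851 mouse windows of this length held such a match. An inverted pair stood in windows of 6 of the 7 genes, all but Dnajb1, and in 15.1% of all windows. A match describes the letters only.

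Levels are log2 values of the processed intensity relative to the 75th percentile of the same array, at which the level is 0, and levels of different probes are not compared. The 75th percentile ran from 759.9 to 1239 intensity units, no spot was saturated, and the share of probes well above background was 64.9% to 81.7%. One slide carried days -2 and 0 and another days +2 and +4 (here the first and the second), so slide and induction cannot be told apart, whereas each slide held both lines. On the second slide 1254 genes (4.74%) were well above background on all 4 arrays after being so on none of the first, against 3 genes the other way round. Those included the lung gene Sftpc. The 9 lung epithelium markers measured, of which 4 to 6 were above background on first-slide arrays, were summed on each array. The sum was 10.5 to 26.7 multiples of the 75th percentile on the second slide, against 0.941 to 4.41 on the first. Cyp2f2, above background on all 8 arrays, contributed most to each sum. Fat cell markers (8) summed to 12.0 to 26.7 in sh8 and 36.4 to 70.4 in WT, with 3 of the 8 lower in sh8 (27.0% of all genes passed between the lines), and 7 of the 8 rose after induction (36.3% of all genes passed). Preadipocyte and fibroblast markers (9) were well above background on every array, with 3 higher and 2 lower in sh8, and 1 higher and 3 lower after induction. In bulk RNA, fewer cells of a type and less RNA per cell cannot be told apart.

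**Figure D1:**
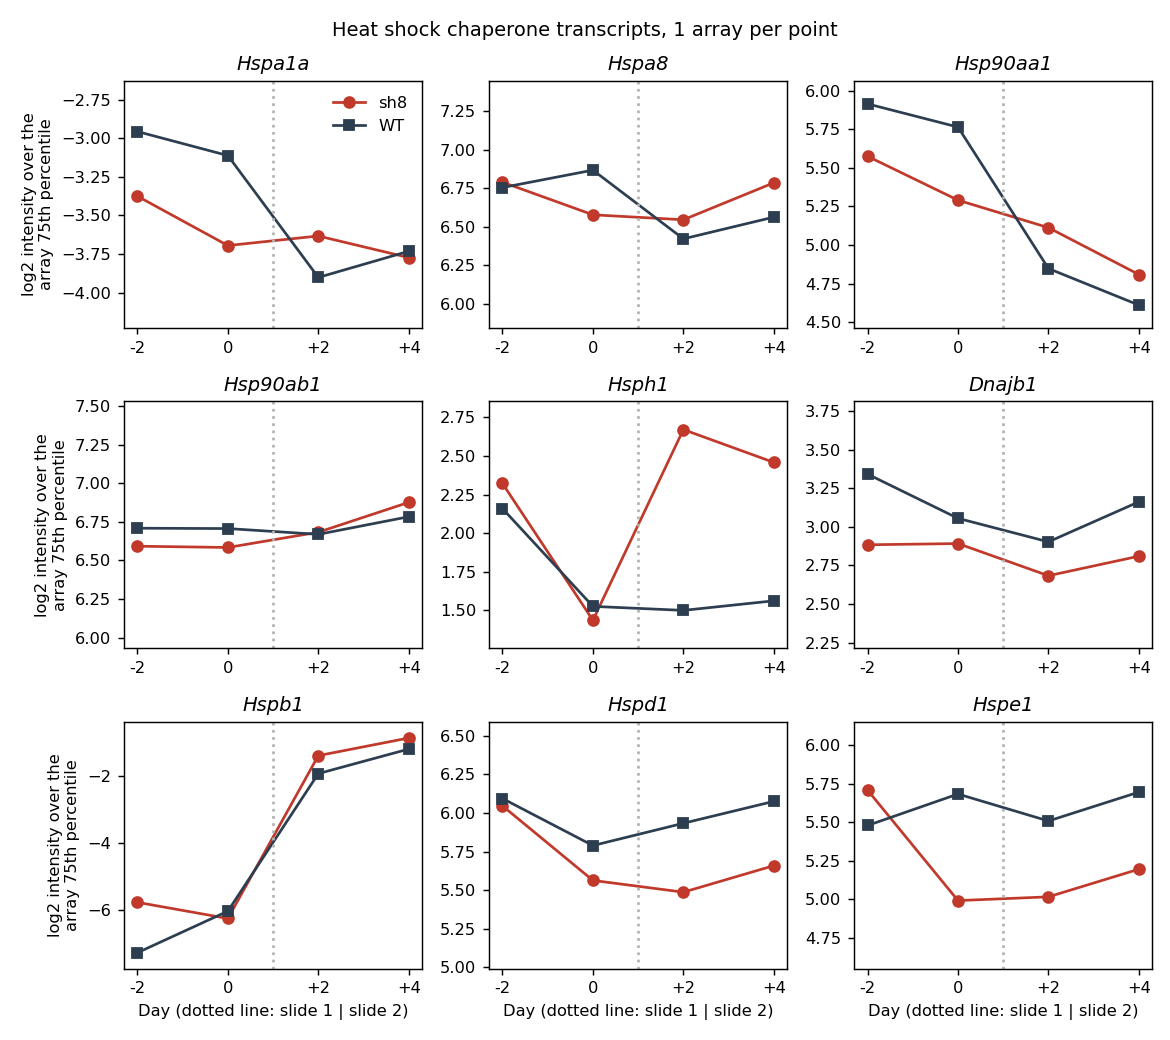
Level of each of the 9 measured genes by day (x axis) in sh8 (red circles) and WT (dark squares); the y axis is log2 intensity over the array's 75th percentile, with its own range in each panel, and each point is 1 array. Hsph1 separates the lines on days +2 and +4, Hsp90aa1 declines over the days in both, Hspd1 and Hspe1 are lower in sh8 from day 0 on, and Hspb1 lies far higher on the second slide.

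The first question was whether the chaperones differed between sh8 and WT cells. None of the 9 passed the test over the 4 days, which was limma with day as a factor and Benjamini-Hochberg adjustment over all genes tested. Across all genes 27.0% passed (4433 higher, 2722 lower; 2642 and 2571 with quantile scaling). At an unadjusted p under 0.05 stood 1 of the 9, Dnajb1. The median difference of the 9 was -0.09, beside 0.13 for all genes tested, and 3 differences were positive and 6 negative. With quantile scaling the median of all genes was 0.02, so differences of about 0.1 on the log2 scale depend on the scaling.

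Among the Hsp70 genes, Hspa8 encodes the constitutive Hsc70. Its brightest probe had levels of 6.79, 6.58, 6.55 and 6.79 on days -2, 0, +2 and +4 in sh8, against 6.75, 6.87, 6.42 and 6.56 in WT. The lines overlapped, and the whole span over 8 arrays was 6.42 to 6.87. The fitted difference was 0.02 ± 0.12 (SE; 95% interval -0.29 to 0.33; limma adjusted p = 0.897), and its sign turned under several settings. The 2 dimmer Hspa8 probes gave mean differences of 0.06 and -0.02.

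Hspa1a encodes inducible Hsp70. Its probe was dim but well above background on all 8 arrays, at -3.38, -3.69, -3.63 and -3.77 in sh8 and -2.96, -3.11, -3.90 and -3.73 in WT. The 2 highest values were WT before induction, and the other 6 arrays lay within -3.90 to -3.38. The difference was -0.19 ± 0.17 (SE; limma adjusted p = 0.421), made up of -0.42 and -0.58 on days -2 and 0 and 0.27 and -0.04 on days +2 and +4. By quantile scaling it was -0.41 (adjusted p = 0.111), and with normexp background correction -0.09 (adjusted p = 0.500).

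The 2 Hsp70 helpers had differences of opposite sign. Dnajb1, a J protein that starts the Hsp70 cycle, stood at 2.88, 2.89, 2.68 and 2.81 in sh8 and at 3.34, 3.05, 2.90 and 3.16 in WT. Every sh8 value lay below every WT value, the nearest being 2.89 (sh8, day 0) and 2.90 (WT, day +2). The difference was -0.30 ± 0.10 (SE; 95% interval -0.55 to -0.04; limma adjusted p = 0.0800). It passed only when genes had to be well above background on all 8 arrays (adjusted p = 0.0486). The difference itself was the same there, and limma then called 8040 of the 19780 genes tested. With quantile scaling it was -0.16.

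Hsph1, the Hsp110 exchange factor, had levels of 2.32, 1.44, 2.67 and 2.46 in sh8 and of 2.16, 1.53, 1.50 and 1.56 in WT. The lines were close on days -2 and 0 (differences 0.16 and -0.09) and 1.17 and 0.90 apart on days +2 and +4, with sh8 higher. A second, dimmer Hsph1 probe gave 0.15, -0.13, 1.16 and 0.87 on the same days. Over all 4 days the difference was 0.54 ± 0.25 (SE; limma adjusted p = 0.162). Within the first slide it was 0.04 (adjusted p = 0.862) and within the second 1.03 (adjusted p = 0.0388). Of all 26460 genes tested, limma called 0 on the first slide alone and 5185 on the second alone.

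**Figure D2:**
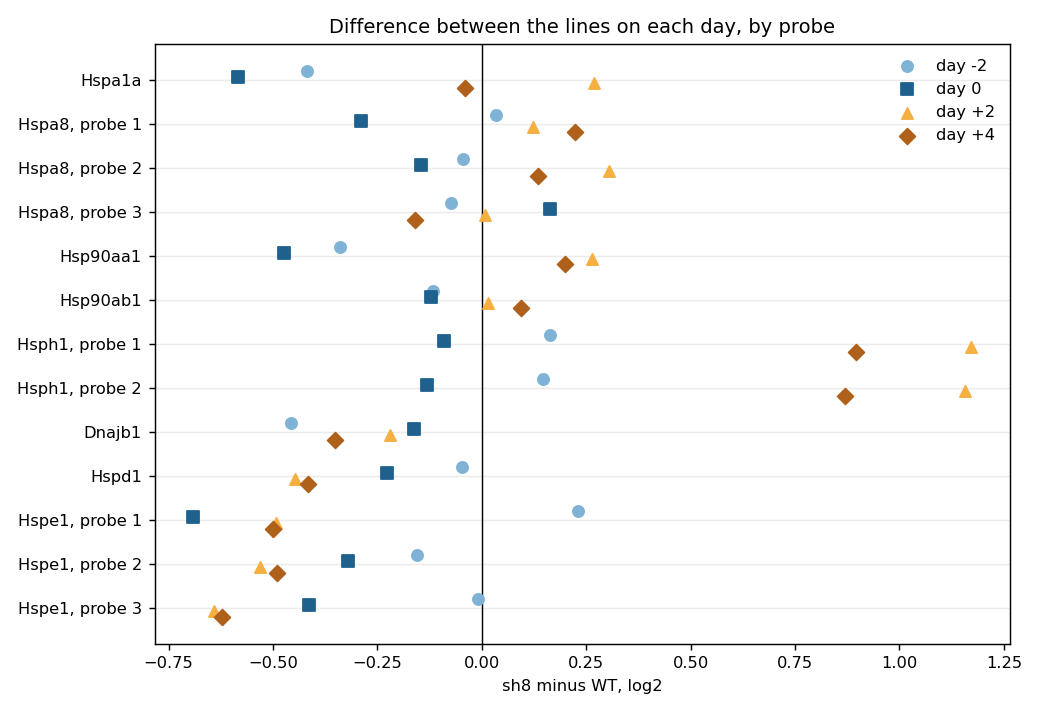
Difference sh8 minus WT (x axis, log2) for the 13 probes of the 8 genes well above background on all 8 arrays (y axis), with 1 symbol per day and 1 array per line and day. Both Hsph1 probes lie near 0 on days -2 and 0 and at 0.87 to 1.17 on days +2 and +4, and all 3 Hspe1 probes lie below 0 from day 0 on.

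Of the Hsp90 pair, Hsp90aa1 is the stress-inducible form and Hsp90ab1 the constitutive one. Hsp90aa1 measured 5.58, 5.29, 5.11 and 4.81 in sh8, against 5.91, 5.76, 4.85 and 4.61 in WT. It was lower in sh8 by 0.34 and 0.47 on days -2 and 0 in these single arrays, and higher by 0.26 and 0.20 on days +2 and +4. The average difference of -0.09 ± 0.17 (SE; limma adjusted p = 0.710) therefore joins days of opposite sign. Hsp90ab1 was the steadiest of the 9, at 6.59, 6.58, 6.68 and 6.88 in sh8 and 6.71, 6.71, 6.67 and 6.78 in WT. Its difference was -0.03 ± 0.09 (SE; 95% interval -0.27 to 0.21; limma adjusted p = 0.804).

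The mitochondrial pair, which folds imported proteins as a barrel and lid, was lower in sh8 from day 0 on without passing the test. Hspd1 levels were 6.05, 5.56, 5.49 and 5.66 in sh8 and 6.09, 5.79, 5.93 and 6.08 in WT. The differences on the 4 days were -0.05, -0.23, -0.45 and -0.42, and their change between the periods did not pass (limma adjusted p = 0.364). The fit gave -0.28 ± 0.11 (SE; 95% interval -0.57 to 0.00077; limma adjusted p = 0.115), and the second slide alone -0.43 (adjusted p = 0.0895). For Hspe1 the brightest probe read 5.71, 4.99, 5.02 and 5.20 in sh8 and 5.48, 5.68, 5.51 and 5.70 in WT. That probe was the only one of the 3 Hspe1 probes with sh8 above WT on day -2 (by 0.23, against -0.15 and -0.01 for the others). From day 0 on the 3 probes agreed in direction, between -0.32 and -0.69. The fitted difference of the brightest was -0.36 ± 0.18 (SE; limma adjusted p = 0.182), and the other 2 had mean differences of -0.37 and -0.42.

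Hspb1, which protects actin and holds unfolded clients, was not well above background on any array of days -2 and 0, so the lines can be compared only on days +2 and +4. There sh8 had -1.39 and -0.87 and WT -1.93 and -1.20, differences of 0.54 and 0.33. Each day's value rests on single arrays, with no test of its own. On the second slide alone the difference was 0.43 (limma adjusted p = 0.103).

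On single days 0 or 1 of the 9 reached a 2-fold difference, and 9 genes are too few to tell that from the share of all genes. Past it were Hsph1 on day +2, where 19.6% of all genes were, and none of the 9 on day 0 (12.8% of all genes) or day +4 (14.9%). On day -2 (11.4%) Hspb1 alone exceeded it, with both lines below background, so that this is no measured difference.

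The next question was how the chaperones changed along the time course. Between days 0 and -2, which shared a slide, limma called 0 of the 9 and 0% of all genes (0 genes). At an unadjusted p under 0.05 stood 6712 genes, none of them among the 9. Hsph1 had changes of -0.89 in sh8 and -0.63 in WT, with a fit of -0.76 ± 0.35 (SE; limma adjusted p = 0.251). Hspd1 had -0.48 in sh8 and -0.30 in WT and a fit of -0.39 ± 0.16 (SE; limma adjusted p = 0.204). Proliferation markers (14, such as Mki67 and Pcna) summed on day 0 to 22.4 in sh8 and 37.2 in WT, against 95.6 in sh8 and 119 in WT on day -2, and their part in these values was not tested.

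Between days +2 and 0, which lay on different slides, Hspb1 was the only one of the 9 to pass, beside 11.9% of all genes (2381 higher, 764 lower; 1210 and 740 with quantile scaling). In the processed intensities it was at least 14.8-fold higher on day +2 than on day 0, a bound of 3.89 on the log2 scale. The bound sets the measured mean of -1.66 against the higher of the gene's value and the lowest signal well above background on each dim array. The limma test (adjusted p = 0.0105) used the measured difference of 4.48, which includes values not well above background. Quantile scaling gave 4.24, but normexp background correction gave 2.20, so the bound does not hold under normexp. The call rested on 2 arrays a day and was lost without any 1 of these 4 (adjusted p 0.0559 to 0.0720). Hsp90aa1 had -0.55 ± 0.24 (SE; limma adjusted p = 0.193). Between days +4 and +2, on the second slide, limma called 0 of the 9 and 0% of all genes. Of the 1437 genes at an unadjusted p under 0.05, none was among the 9. Hspb1 had a difference of 0.63 ± 0.41 (SE; limma adjusted p = 0.842).

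Days +2 and +4 together were then set against days -2 and 0. Of the 9 genes, Hspb1 was higher and Hsp90aa1 lower, where 36.3% of all genes passed (7083 higher, 2523 lower; 4370 and 3304 with quantile scaling). The median change of the 9 was -0.11, beside 0.17 for all genes.

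Hspb1 had levels of -1.39 and -0.87 in sh8 and -1.93 and -1.20 in WT on days +2 and +4. On days -2 and 0 its measured values, none well above background, were -5.77 and -6.25 in sh8 and -7.27 and -6.03 in WT. The 2 periods were far apart. In the processed intensities the gene was at least 21.1-fold higher on days +2 and +4, at least 21.7-fold in sh8 and at least 20.4-fold in WT. The 21.1-fold bound is 4.40 on the log2 scale. The limma test (adjusted p = 0.00143) used the measured difference of 4.99, which includes values not well above background. Quantile scaling gave 4.68, but normexp background correction gave 2.63, so the bound does not hold under normexp. Hspb1 belonged to the 1254 genes above background on the second slide only.

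Summed lung epithelium and red blood cell markers rose with Hspb1, while summed endothelial and leukocyte markers overlapped between the slides. Single genes among the endothelial and leukocyte markers also rose. Over this contrast 36.3% of all genes passed. All 9 lung epithelium markers tested passed upward over the same contrast. Among them were Sftpc, a surfactant protein of alveolar cells, which was well above background on 4 arrays, and Scgb1a1, a club cell protein (4.70 ± 0.11). The lung list was chosen because an earlier account of these data named lung genes on some arrays, so its rise is a description only. On the first slide 4 to 6 of the 9 were above background and on the second all 9. Red blood cell markers (4 measured) summed to 1.49 to 2.51 on the second slide and 0.347 to 0.661 on the first, and 2 of the 3 tested rose. Endothelial markers (5) summed to 1.13 to 1.62 on the second slide and 1.02 to 1.90 on the first. Above background were 4 or 5 on the second against 2 on the first, and 3 rose. Those 3 were Cdh5 (3.52), Tek (2.49) and Emcn (1.41), above background on 4, 4 and 2 arrays. Kdr, above background on all 8 arrays, contributed most to each endothelial sum. Leukocyte markers (8 measured) summed to 5.53 to 8.38 on the second slide and 5.45 to 7.96 on the first, with 4 higher and 1 lower. The higher ones included Lyz2 (3.37, above background on 4 arrays), and the lower one was Aif1 (-0.50). Itgam, above background on all 8 arrays, contributed most to each leukocyte sum. Between the lines 27.0% of all genes passed (4433 higher, 2722 lower). Higher in sh8 were 3 of 9 lung, 5 of 8 leukocyte, 2 of 5 endothelial and 1 of 3 red blood cell markers tested. Of these small lists of markers 0 were lower. The part of these cells, or of the slide, in the Hspb1 result was not tested.

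**Figure D3:**
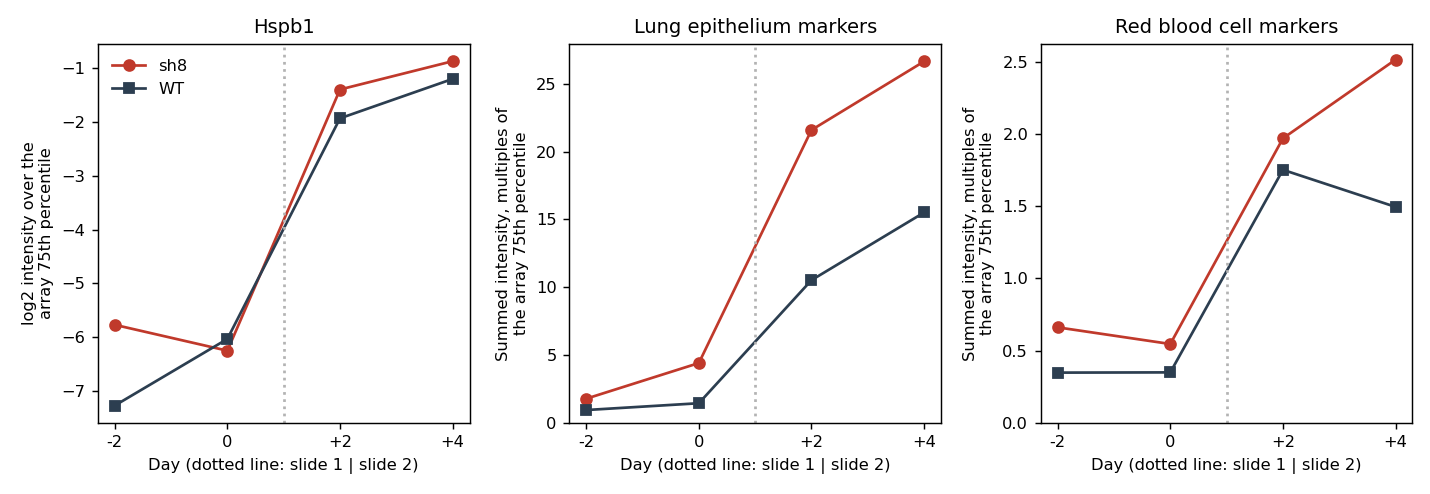
Hspb1 level (left; log2 over the array's 75th percentile) and the summed levels of 9 lung epithelium markers (middle) and 4 red blood cell markers (right; both linear, in multiples of the 75th percentile) by day in sh8 (red circles) and WT (dark squares), 1 array per point. All 3 are higher on every second-slide array than on any first-slide array.

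Hsp90aa1 averaged 4.96 in sh8 and 4.73 in WT on days +2 and +4, against 5.43 in sh8 and 5.84 in WT on days -2 and 0. Every array after induction, all on the second slide, lay below every array before it, all on the first. Hsp90aa1 fell by 0.79 on the log2 scale, with an SE of 0.17 (95% interval -1.22 to -0.36; limma adjusted p = 0.0227). The change was -0.47 in sh8 and -1.11 in WT. The call was lost without sh8 day +4 or any 1 of the 4 WT arrays (adjusted p 0.0563 to 0.0860).

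The other 7 did not pass. Hspa1a had -0.48 ± 0.17 (SE; limma adjusted p = 0.0860). Its means were -3.70 in sh8 and -3.82 in WT after induction, and -3.53 in sh8 and -3.03 in WT before it. The gene passed with quantile scaling (-0.69, adjusted p = 0.0285) and with the authors' deposited values (-0.68, adjusted p = 0.0275). With normexp background correction the change was only -0.17 (adjusted p = 0.208). Of the constitutive forms, Hspa8 had -0.17 ± 0.12 by its brightest probe and -0.24 by the mean of its probes, Hsp90ab1 0.11 ± 0.09, Hspd1 -0.08 ± 0.11 and Hspe1 -0.11 ± 0.18 (SE each). Dnajb1 had -0.15 ± 0.10 and Hsph1 0.19 ± 0.25. The Hsph1 value joins a change of 0.69 in sh8 and -0.31 in WT.

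Whether the difference between the lines itself changed with the period was tested as an interaction, with 2 residual degrees of freedom. By limma 0 of the 9 passed and 0% of all genes, and at an unadjusted p under 0.05 stood 3 of the 9 and 5268 of all genes. The 3 were Hsph1 at 1.00 ± 0.19 (SE; 95% interval 0.45 to 1.54; adjusted p = 0.145), Hsp90aa1 at 0.64 ± 0.15 (adjusted p = 0.169) and Hspa1a at 0.61 ± 0.19 (adjusted p = 0.217). All 3 values are positive, meaning that sh8 minus WT was higher on days +2 and +4 than on days -2 and 0. Hspd1 (-0.29 ± 0.15) and Hspe1 (-0.26 ± 0.36) had negative values. With normexp background correction Hsph1 (0.95, adjusted p = 0.0226) and Hsp90aa1 (0.68, adjusted p = 0.0498) passed, together with 1291 genes in all. The test on genes above background on all 8 arrays called Hsph1 (adjusted p = 0.0449), together with 1119 of 19780 genes in all.

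**Figure D4:**
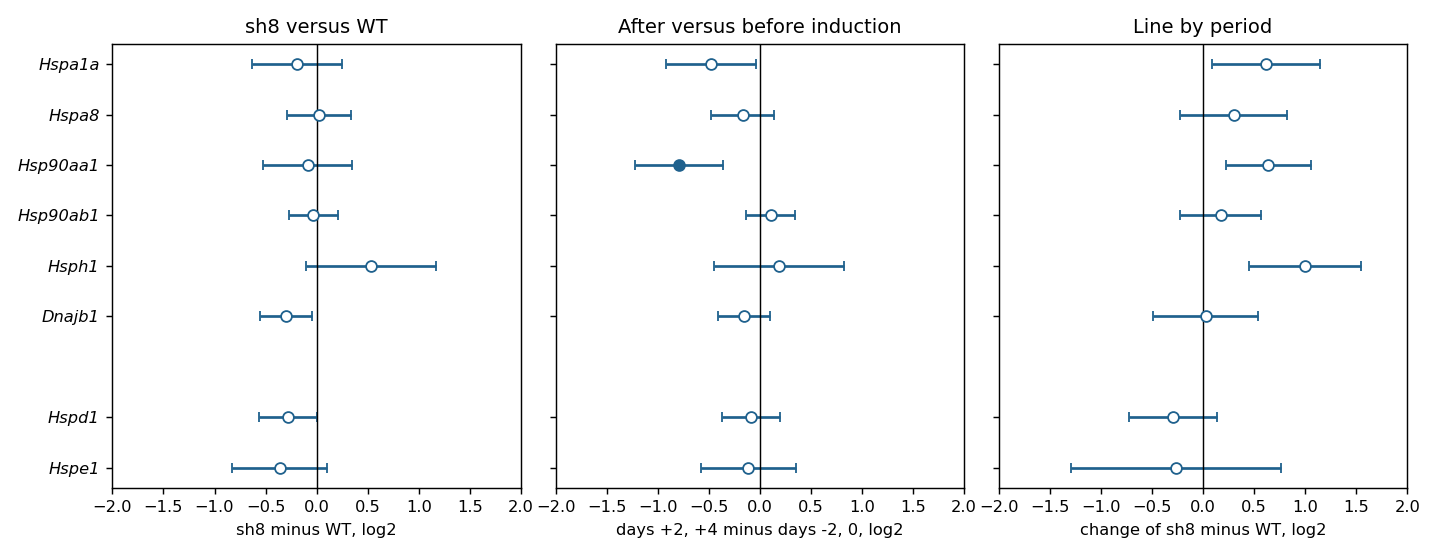
Fitted log2 differences with 95% intervals (limma, 8 arrays) for the 8 genes above background on all arrays, for sh8 minus WT, for days +2 and +4 minus days -2 and 0, and for the change of sh8 minus WT between the periods; the filled point passed the threshold. Hsp90aa1 after induction (-0.79) is the one filled point, and the Hsph1 interaction reaches 1.00.

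Across the 8 arrays some chaperones moved alike, which is given as a description, since the arrays share 2 slides, 2 lines and their scaling. Hspa1a and Hsp90aa1 had a Pearson r of 0.92 (Spearman 0.88), and Hspd1 and Hspe1 0.86 (0.69). Hsp90aa1 and Hspb1 had r = -0.91, where Hspb1 was not above background on the 4 first-slide arrays, and Hsph1 had r between -0.38 and 0.27 with the other members. The 5 named genes outside the list with the profile most like that of Hspd1, among 7527 with an SD of at least 0.5, were Znrd2 (r = 0.99), Nop2 (0.98), Nhp2 (0.98), Mras (0.97) and Nop56 (0.97). Nop2, Nhp2 and Nop56 are nucleolar proteins of ribosome and small RNA assembly. For Hspa1a they were Tdpoz7 (0.96), Scgb2b26 (0.96), Cgn (0.96), Esf1 (0.96) and Lcorl (0.96), of which Scgb2b26 lay between -8.32 and -4.59, near or below the detection limit on most arrays. Those for Hspa8 were Pou3f4 (0.90), Nkx2-4 (0.88), Scube3 (0.87), Fyb (0.87) and Lmtk3 (0.87), with levels of these genes between -6.56 and -3.51, close to background on many arrays.

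Other chaperone genes were then described by lists, beside the background of 27.0% called between sh8 and WT. TRiC, the cytosolic chaperonin that folds actin and tubulin, and its partner prefoldin had 8 of 14 genes lower in sh8 and 0 higher, with a median of -0.47 beside 0.13 for all genes. Cct7, a TRiC subunit, had 3.07, 2.64, 2.86 and 2.83 in sh8 and 3.76, 3.28, 3.67 and 3.56 in WT, without overlap on any day (-0.72 ± 0.09 SE, limma adjusted p = 0.0137). Cct8 (-0.68), Pfdn6 (-0.74) and Cct6a (-0.91) were lower as well. Leaving out day 0, +2 or +4, or using the first slide alone, left 0 of the 14, with medians of -0.49, -0.37, -0.46 and -0.36. Without day 0 limma called 79 of all genes tested, and in the other settings 0. Those list counts therefore say nothing particular to the list.

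Among 13 mitochondrial chaperones and proteases, the group of Hspd1 and Hspe1's partners, 4 were lower and 0 higher (median -0.40). These were Hscb (-0.84), a helper of iron-sulphur protein assembly, and the proteases Htra2 (-0.78), Afg3l2 (-0.55) and Clpp (-0.50). Of 24 proteasome subunits 6 were lower (median -0.27), such as Psmc3 (-0.53) and Psma7 (-0.72). Both counts were 0 on the first slide alone and without day 0, +2 or +4, settings in which limma called 0 to 79 of all genes tested. Of 14 proliferation markers 2 were lower (Pcna -0.96, Mcm6 -1.52) and 0 higher, beside 27.0% of all genes called (4433 higher, 2722 lower). Their median was -0.94, and 12 of the 14 differences were negative. Their summed levels on days +2 and +4 were 44.8 and 31.5 in sh8 and 106 and 105 in WT. Their part in these list results was not tested.

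Cochaperones of Hsp70 and Hsp90 had 3 of 25 lower and 0 higher (median -0.21). The 3 were the Hsp90-binding isomerases Ppid (-0.78) and Fkbp4 (-0.99), which sit on steroid receptor complexes, and the Cdc37-like gene Cdc37l1 (-0.59). Of 8 other Hsp70 and Hsp110 genes, Hspa14 (-0.85), Hspa4 (-0.42) and Hspa12a were lower, Hspa12a being above background on 6 arrays only. J proteins had 3 of 15 lower (Dnaja4 -1.10, Dnajb6 -0.47, Dnajc2 -0.50) and 1 higher, Dnajc3 (0.56), which works in the endoplasmic reticulum. Of 6 small heat shock proteins tested besides Hspb1, Hspb8 was lower (-1.12) and Hspb2 higher (0.80). ER chaperones had 4 of 15 higher and 0 lower (median 0.26), where 27.0% of all genes were called (4433 higher, 2722 lower). The 4 were P4hb (0.70), a protein disulphide isomerase, Creld2 (0.65), Sdf2l1 (0.65) and Manf (0.59). Of the 15 differences 14 were positive, beside a median of 0.13 for all genes. Heat shock factors and their regulators had 0 of 8 past the threshold by limma, 2 at an unadjusted p under 0.05 (Hsf2bp 0.35, Hsbp1 -0.31). On the first slide alone, and without day +2 or day +4, limma called 0 genes of any list, as it called 0 of all genes tested. Without day 0, where it called 79 of all genes, the cochaperones and the ER chaperones also had 0. On the second slide alone the ER chaperones had 1 higher and 1 lower.

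**Figure D5:**
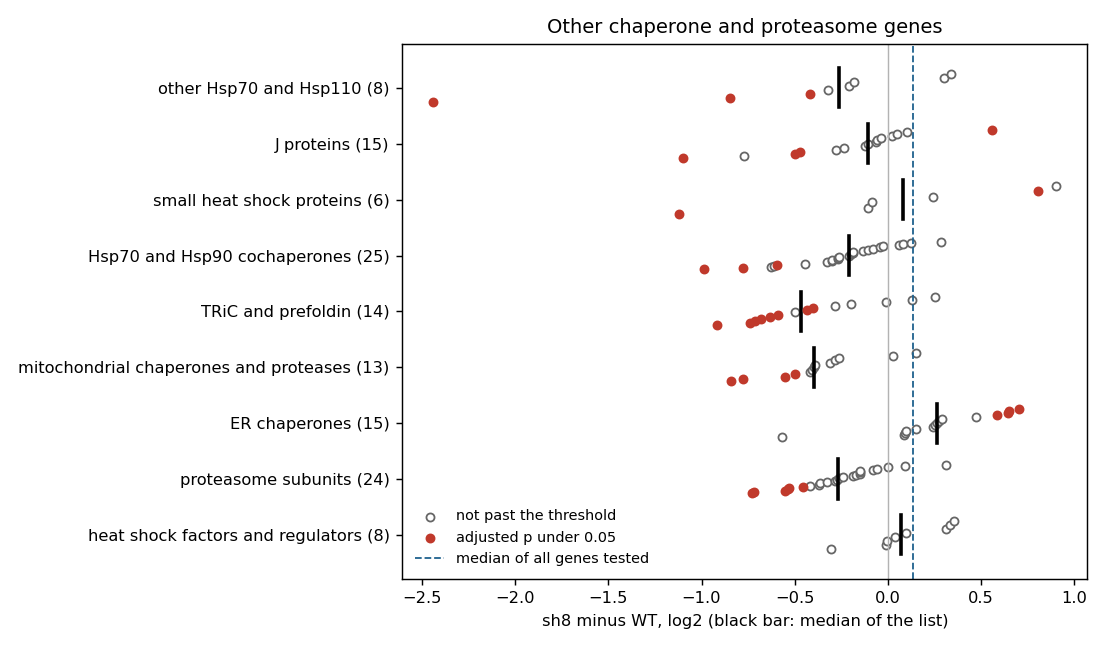
Log2 difference sh8 minus WT of each tested gene (points; filled, adjusted p under 0.05) in 9 lists of chaperone, proteasome and heat shock factor genes, with the number tested in brackets, the list median (black bar) and the median of all genes (dashed line). TRiC and prefoldin lie furthest to the left by median (-0.47), and the ER chaperone median (0.26) lies to the right of that of all genes.

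After induction, where the background was 36.3%, the lists changed in other ways. Small heat shock proteins had 2 of 6 higher and 3 lower: Hspb2 (-1.08), Hspb6 (-0.80) and Cryab (-1.72), the lens and muscle crystallin, were lower where Hspb1 was higher, and Hspb11 (0.74) was higher, as was Hspb7, above background on 3 arrays only and named after its value was seen. Cochaperones had 3 of 25 higher and 1 lower, led by Fkbp5, a glucocorticoid target that binds Hsp90. Fkbp5 stood at 4.51 and 4.78 in sh8 and 4.90 and 4.94 in WT on days +2 and +4, against 1.77 and 1.50 in sh8 and 2.02 and 2.48 in WT on days -2 and 0 (2.84 ± 0.17 SE, limma adjusted p = 0.00143). Cdc37l1 (0.49) and Ppid (0.35) were also higher. Of 8 heat shock factors and regulators, Hsf2 (0.60) and Hsf2bp (above background on 6 arrays) were higher, and Nfyc (-0.69), a subunit of the CCAAT-binding factor, was lower.

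The remaining lists had few calls over this contrast. TRiC and prefoldin had 1 of 14 higher (Cct2, 0.39), the mitochondrial list 1 higher (Grpel2, 0.74) and 1 lower (Clpp, -0.40) of 13, the ER list 1 of 15 higher (Dnajb9, 0.44), the proteasome 1 of 24 lower (Psmd1, -0.30) and the J proteins 1 of 15 higher (Dnaja4, 0.66). Other Hsp70 genes had 2 of 8 higher (Hspa1l and Hspa12a, above background on 7 and 6 arrays) and Hspa12b lower (-0.82).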

How the data were processed

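RNA of 8 samples of a mouse cell line was hybridised to 1-colour Agilent arrays; the series description names another maker. Per the file headers, the authors' files give spot intensities read with Agilent Feature Extraction (version 11.0.1.1, also in the submitters' processing notes) for an mm9 design. The authors' deposited value table is on a log2 scale with a median of 6.38 on every array, and each column correlated best with its own array (r 0.994 to 1.00); no source used here gives its normalization.

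Controls (1377 of 44397 spots) and 46 probes with outlier flags were left out, and repeat spots averaged. RefSeq accessions named 27234 of 39429 probes through a GRCm38.p6 table. Values were log2 processed intensity minus the array's 75th percentile. Probes well above background on at least 2 arrays were kept, and the brightest probe of each gene tested with limma 3.58.1 in R 4.3.3 (Benjamini-Hochberg, 0.05); the procedure was tested on simulated data. The number of arrays limits the precision. Bounds ("at least N-fold") use, per dim array, the higher of the gene's value and the lowest signal well above background. They apply to the processed intensities and not to normexp values. Normexp (offset 50) used median spot signals, as no mean signal was in the files.

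The 10 genes, the gene lists and the rules were chosen with earlier results of these data known. All 10 genes were described; the lists' named genes were the up to 4 members of lowest p among those called, or up to 2 of lowest p if none was, and for 3 genes the 5 most similar profiles. Scgb1a1 and Sftpc are among the 4 lung markers so named. Some genes that these rules name are not reported here.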

Additional observations from a re-analysis of the deposited data

Results flagged for a closer look

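Hsp90aa1 and Hsp90ab1 were the 2 of 9 chaperones in which sh8 minus WT had one sign on both days before induction and the opposite sign on both days after it, as 11.3% of all genes tested did. For Hsp90aa1 sh8 minus WT was 0.26 and 0.20 on days +2 and +4 and -0.34 and -0.47 on days -2 and 0, and the change was 0.64 (limma interaction, adjusted p = 0.169). For Hsp90ab1 it was 0.01 and 0.09 on days +2 and +4 and -0.12 on each of days -2 and 0, and the change was 0.17 (adjusted p = 0.525). Neither passed the test of the difference.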

How the results depend on the processing

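With 1 array per line and day, the error of a line difference is its spread between days. Of the counts of chaperones past the threshold, 64 alternatives gave the same count within 1.5 times and 15 did not. For sh8 versus WT the count was 0, and 1 on genes above background on all 8 arrays and on the second slide alone. For day +2 versus day 0 it was 1, 0 on genes above background on all 8 arrays (Hspb1 is then not tested), and 0 to 1 without single arrays. For days +2 and +4 versus days -2 and 0 it was 2, 1 on that same filter (again without Hspb1), 1 to 2 without single arrays, and 3, with Hspa1a, by quantile scaling and by the authors' deposited values. For the interaction it was 0, 2 with normexp and 1 on that filter. The cause of the other moves was not tested. Over all genes, sh8 versus WT had 7155 calls, and 4208 without day -2, 79 without day 0 and 0 without day +2, without day +4 or on the first slide. Day 0 versus day -2 gave 3562 with normexp, 1669 on the strictest filter and 10 with the authors' deposited values, in place of 0.

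Signs turned in uncalled values, the cause not tested. In sh8 versus WT, Hspa8 was -0.010 with quantile scaling, -0.011 with the authors' deposited values, -0.13 on the first slide, -0.011 without day +2 and -0.044 without day +4. On the second slide Hspa1a was 0.11, Hsp90aa1 0.23 and Hsp90ab1 0.054, and Hsp90aa1 was 0.041 without day 0. After versus before induction, Hspe1 was 0.029 with the mean of its probes and ran from -0.31 to 0.086 (without sh8 day -2) when single arrays were left out, and Hsph1 ran from -0.025 (without sh8 day +2; -0.021 without sh8 day 0) to 0.40. In the interaction, Hspb1 was 0.20 with normexp and 0.65 without day -2, Dnajb1 -0.12 without day -2 and -0.042 without day +2, and Hspe1 0.20 without day -2. Settings for the list counts were chosen after seeing the data: the TRiC and prefoldin count of 8 ran from 0 to 10, the mitochondrial count of 4 from 0 to 8, the proteasome count of 6 from 0 to 12, the cochaperone count of 3 from 0 to 6 and the ER count of 4 from 0 to 6, and the sign of each list's median held in all settings. Hspb1, below background on 4 arrays, has only a bound there, and its normexp differences were smaller than the bounds.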

Other observations

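Of 9 ubiquitin and oxidative stress genes, Gclc (1.21 ± 0.24 SE) and Gclm (0.68 ± 0.13 SE), which encode the subunits of the enzyme that starts glutathione synthesis, were higher in sh8 than in WT (limma adjusted p = 0.0284 and 0.0241) and 0 were lower, beside 27.0% of all genes called. After induction Gclc was higher (1.75) and Gclm (-0.91) and Sqstm1 (-0.57) were lower, so the 2 subunits moved apart. Of 12 immediate early genes, Dusp1 was higher (1.00) and Egr1 lower (-1.39) in sh8, likewise no larger a share than over all genes. After induction Fos (-1.80) and Egr1 (-1.81) were lower, and Dusp1 (1.03) and Jun (0.78) higher.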
